A study of Mus musculus with 9 samples.

Results

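The genes described here are 46 interferon-induced genes of the mouse, taken by their symbols from the 55385 genes of the count matrices, where each symbol matched 1 gene. They were followed over the B, plasma, T, NK, myeloid and dendritic cells of the spleen in 3 genotypes of Ern1, the gene of IRE1: mice with 2 copies of the R594C mutation (R594C/R594C, 2 hashtag replicates), mice with 1 copy (R594C/+, 4 replicates) and wild-type mice (WT, 4 replicates). IRE1 is a sensor of stress in the endoplasmic reticulum, and its RNase domain splices the Xbp1 transcript. Spleen cells of each genotype were stained with antibodies that carry DNA tags, some of them hashtags that mark a replicate, and RNA and antibody tags were read in 1 droplet capture per genotype (CITE-seq). The labels give neither the strain nor the age of the mice, and do not say whether a hashtag stands for 1 animal, so each p-value measures the spread between these replicates only. Each genotype was 1 capture with its own antibody-tag library, so an effect of genotype cannot be told apart from one of capture, library or staining. R594C is a point mutation, so the level of Ern1 RNA, counted at the 3′ end, does not check the genotype labels.

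Interferons are secreted proteins that warn cells of infection. Type I interferons (IFN-alpha and IFN-beta) act through IFNAR and a transcription factor complex that holds STAT2 and IRF9 and binds the interferon-stimulated response element (ISRE) of its target genes, and type II interferon (IFN-gamma) acts through the gamma-activated site (GAS). The induced genes encode sensors of viral RNA and DNA, factors that block viral entry, translation and release, and GTPases that attack intracellular microbes. In the spleen, plasmacytoid dendritic cells are a main source of type I interferon, while NK cells and T cells make IFN-gamma.

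The captures held 17444 (R594C/R594C), 17980 (R594C/+) and 16027 (WT) cell barcodes, and 13954, 14706 and 12327 cells were kept after hashtag calls and removal of doublets. A replicate held 13049900 to 26971170 RNA UMIs (unique molecular identifiers, 1 for each captured RNA molecule), and the level of a gene is given in CPM, the counts-per-million share of its UMIs among all RNA UMIs of the replicate's cells of a class. Reads came from the 3′ end, so these levels are not scaled by length. Pairs of captures shared 89, 68 and 79 barcodes. By Xist, 1 R594C/R594C replicate expressed as male (replicate 1) and the other as female, all 4 R594C/+ replicates as female, and 3 WT replicates as male, with WT replicate 2 female. Classes were clusters of cells named from marker genes, with the 46 genes left out of the clustering, and 12 of them had enough cells for tests. A class called "like" a cell type rests on those markers alone, and a lower level in a class cannot be told apart from fewer expressing cells of it.

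The promoters of the genes on which the results turn are shown first: Isg20 and Samhd1, which had the smallest adjusted p-values of the 46 genes in the comparisons of R594C/R594C and R594C/+ with WT, and Ifitm3, whose level differed most between cell classes. Each sequence is a RefSeq window of 300 bases around a transcript start on GRCm38.p6, written 5′ to 3′ on the gene's strand. Capitals mark matches on either strand to the ISRE core GAAANNGAAA or the GAS core TTCNNNGAA, and overlapping matches run together.
Isg20, chr7:78913174-78913473, + strand: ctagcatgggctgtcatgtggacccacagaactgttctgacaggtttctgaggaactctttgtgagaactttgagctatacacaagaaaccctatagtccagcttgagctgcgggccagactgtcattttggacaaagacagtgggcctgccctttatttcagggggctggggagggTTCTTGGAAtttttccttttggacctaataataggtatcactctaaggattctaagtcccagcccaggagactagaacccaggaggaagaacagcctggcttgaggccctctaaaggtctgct
Samhd1, chr2:157135047-157135346, - strand: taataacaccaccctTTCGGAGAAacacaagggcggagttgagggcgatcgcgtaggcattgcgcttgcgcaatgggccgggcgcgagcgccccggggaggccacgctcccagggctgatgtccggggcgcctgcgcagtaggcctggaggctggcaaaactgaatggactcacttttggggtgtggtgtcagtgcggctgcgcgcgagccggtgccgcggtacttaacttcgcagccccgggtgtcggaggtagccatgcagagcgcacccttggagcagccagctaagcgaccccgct
Ifitm3, chr7:141010695-141010994, - strand: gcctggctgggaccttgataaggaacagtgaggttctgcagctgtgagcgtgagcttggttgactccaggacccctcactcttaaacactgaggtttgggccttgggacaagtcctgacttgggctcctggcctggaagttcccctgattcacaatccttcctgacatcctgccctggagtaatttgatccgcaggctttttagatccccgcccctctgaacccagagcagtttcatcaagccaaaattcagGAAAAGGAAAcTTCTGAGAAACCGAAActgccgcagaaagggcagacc
The Isg20 window held 1 GAS core and no ISRE core, and the other Isg20 windows, chr7:78913515-78913814 and chr7:78913985-78914284, held neither. Samhd1 had 1 GAS core. The Ifitm3 window held 2 ISRE cores and 1 GAS core, which lay between them and overlapped only the downstream ISRE core.

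RefSeq windows were at hand for 33 of the 46 genes. An ISRE core lay in the windows of 18 of these 33 genes (54.5%), against 1079 of 27025 genes with a window (3.99%). A GAS core lay in 12 of the 33 (36.4%), against 2582 of the 27025 genes (9.55%). The ISRE core was found in 4 of 4 guanylate-binding protein genes, in 3 of 4 immunity-related GTPase genes and in 2 of 3 IFIT genes. It was found in 1 of 4 transcription factor genes and in none of the 3 genes of the remaining group (Ifi35, Ifi44 and Xaf1). These matches describe letters in a window and are not evidence of binding.

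Levels differed far more between cell classes than between genotypes. Of the 46 genes, 15 had their highest mean level in monocyte-like cells, 12 in neutrophil-like, 8 in plasmacytoid dendritic-like and 7 in macrophage-like cells. A neutrophil-like replicate held only 13 to 78 cells and 24649 to 158829 RNA UMIs, and each mean weighs its replicates equally. A rank in that class can thus rest on few UMIs, and Oas2 averaged 18.7 CPM there against 18.4 in monocyte-like cells. The remaining genes peaked in lymphocytes: Igtp and Gbp6 in CD4 T-like, Ifi47 in CD8 T-like and Gbp4 in NK-like cells. Plasma cell-like cells held the lowest level of many members, among them Ifih1, Dhx58, Oas2, Oas3, Oasl2 and Irf1. No difference between classes was tested, because the classes came from clusters of the same cells.

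Among the sensors, Zbp1, which binds Z-form nucleic acids, averaged 114 CPM in monocyte-like cells and 12.2 in macrophage-like cells. Ifih1, the RNA sensor MDA5, averaged 62.4 in macrophage-like cells and 0.952 in plasma cell-like cells, where only 14 UMIs were counted in all replicates together. Dhx58, the related helicase LGP2, was highest in monocyte-like cells, at 33.5, and like Ifih1 lowest in plasma cell-like cells, at 1.05. Of the 3 sensors, only Zbp1 was abundant in plasma cell-like cells, its second highest class, with 62.2.

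Of the transcription factors, Irf7, the master regulator of type I interferon genes, averaged 193 CPM in monocyte-like cells, 169 in plasmacytoid dendritic-like cells and 6.89 in B1-like cells. Stat2 and Irf9, which encode parts of the type I complex, were highest in plasmacytoid dendritic-like cells, at 112 and 115. Irf1, a factor induced by IFN-gamma and by other signals, was more even, between 37.9 in plasma cell-like and 305 in plasmacytoid dendritic-like cells. It was also among the 3 most abundant members in B1-like (76.7), CD4 T-like (149), CD8 T-like (204) and NK-like cells (196).

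The IFIT and OAS genes, which bind or lead to the decay of viral RNA, were each most abundant in neutrophil-like, monocyte-like or plasmacytoid dendritic-like cells. Oasl2 averaged 285 CPM in neutrophil-like cells and 0.364 in plasma cell-like cells, a 782-fold range that rests on 5 UMIs in plasma cell-like cells. Ifit1 and Ifit3 averaged 54.5 and 67.4 in neutrophil-like cells and 0.768 and 0.333 in plasma cell-like cells. The neutrophil-like level of Ifit1 spread from 0 to 296 over the 10 replicates, with a median of 10.5, on 35 UMIs. Ifit3 and Ifit1 have close paralogs, so reads shared between copies may have been lost or split, and the same holds for Oas1a, the Gbp genes, Igtp and Irgm2, Trim30a and Ifi27l2a.

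In the ISG15 system, Isg15, a ubiquitin-like modifier, averaged 542 CPM in neutrophil-like cells and 10.4 in B1-like cells. Its protease Usp18 peaked in plasmacytoid dendritic-like cells at 39.5, and the ligase Herc6 in macrophage-like cells at 51.0. Parp9, its partner Dtx3l and the ADP-ribosyltransferase Parp14 shared their highest class, monocyte-like (46.5, 69.1 and 142), and their lowest, plasma cell-like (4.85, 7.44 and 11.4).

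The effectors held the widest ranges. Ifitm3, a membrane protein that limits viral entry, averaged 4693 CPM in monocyte-like cells (lowest replicate 3973, median 4727, highest 5598) and 3.84 in marginal zone-like B cells (1.58, 3.27 and 7.62), a 1223-fold range in which no replicate of these classes overlapped. After each cell was thinned to 1500 UMIs, 97.3% of monocyte-like cells had an Ifitm3 UMI, as did 0.610% of marginal zone-like B cells, against 99.8% and 1.61% unthinned at median depths of 5812.5 and 4841.0 UMIs. The shares after thinning in follicular-like B (0.972%), B1-like (0.834%), CD4 T-like (0.899%), CD8 T-like (0.783%) and NK-like cells (0.400%) were as low. Shares of this size cannot be told apart from free RNA in droplets and are not read as expression of Ifitm3.

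Bst2 encodes tetherin, the surface protein CD317 that holds virions at the cell membrane and marks plasmacytoid dendritic cells in the mouse. It averaged 4573 CPM in plasmacytoid dendritic-like cells, 259 in monocyte-like cells and 28.3 in neutrophil-like cells, and all 125 plasmacytoid dendritic-like cells of replicates with at least 10 such cells had a UMI after thinning. Neutrophil-like cells had a Bst2 UMI in 2.88% of cells at a median depth of 1743.0. Bst2 was not among the markers used to name the class.

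Samhd1, a hydrolase of nucleotide triphosphates that restricts retroviruses, was among the 3 most abundant members in 10 of 12 classes, led by 927 in monocyte-like and 743 in neutrophil-like cells, against 76.7 in plasma cell-like cells. Rsad2 (viperin, which makes a chain-terminating nucleotide) averaged 234 in neutrophil-like and 2.19 in B1-like cells. Mx1 and Mx2, which RefSeq annotates as transcribed pseudogenes in the C57BL/6J assembly, were scarce, with 638 and 211 UMIs in all. Isg20, an RNA exonuclease, departed from the other effectors, with 154 in neutrophil-like and 146 in plasma cell-like cells (a ratio of 1.06), against 5.37 in NK-like cells. It was the most abundant member in plasma cell-like cells.

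Most genes of the GTPase families peaked in macrophage-like cells or T cells. Gbp2 was highest in neutrophil-like cells (111 CPM, against 52.6 in macrophage-like cells), and Irgm1 in monocyte-like cells (49.7). Iigp1 averaged 141 CPM in macrophage-like and 53.2 in CD4 T-like cells, and no UMI was found in neutrophil-like cells. Igtp averaged 101 in CD4 T-like and 68.9 in CD8 T-like cells, Ifi47 reached 102 in CD8 T-like cells, and Gbp4 reached 67.5 in NK-like and 57.8 in CD8 T-like cells. Gbp7 had near equal means in macrophage-like (88.0) and NK-like cells (86.1). The IFIT and OAS genes averaged at most 15.6 CPM in CD4 T-like, CD8 T-like and NK-like cells (Ifit2 in CD4 T-like cells), while Isg15 averaged 87.3, 38.9 and 84.0 there. Of the remaining genes, Ifi27l2a was abundant almost everywhere, from 1584 in monocyte-like to 20.8 in NK-like cells. Rtp4 ranged 264-fold from 161 in neutrophil-like to 0.607 in plasma cell-like cells, where 8 UMIs were counted.

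**Figure D1:**
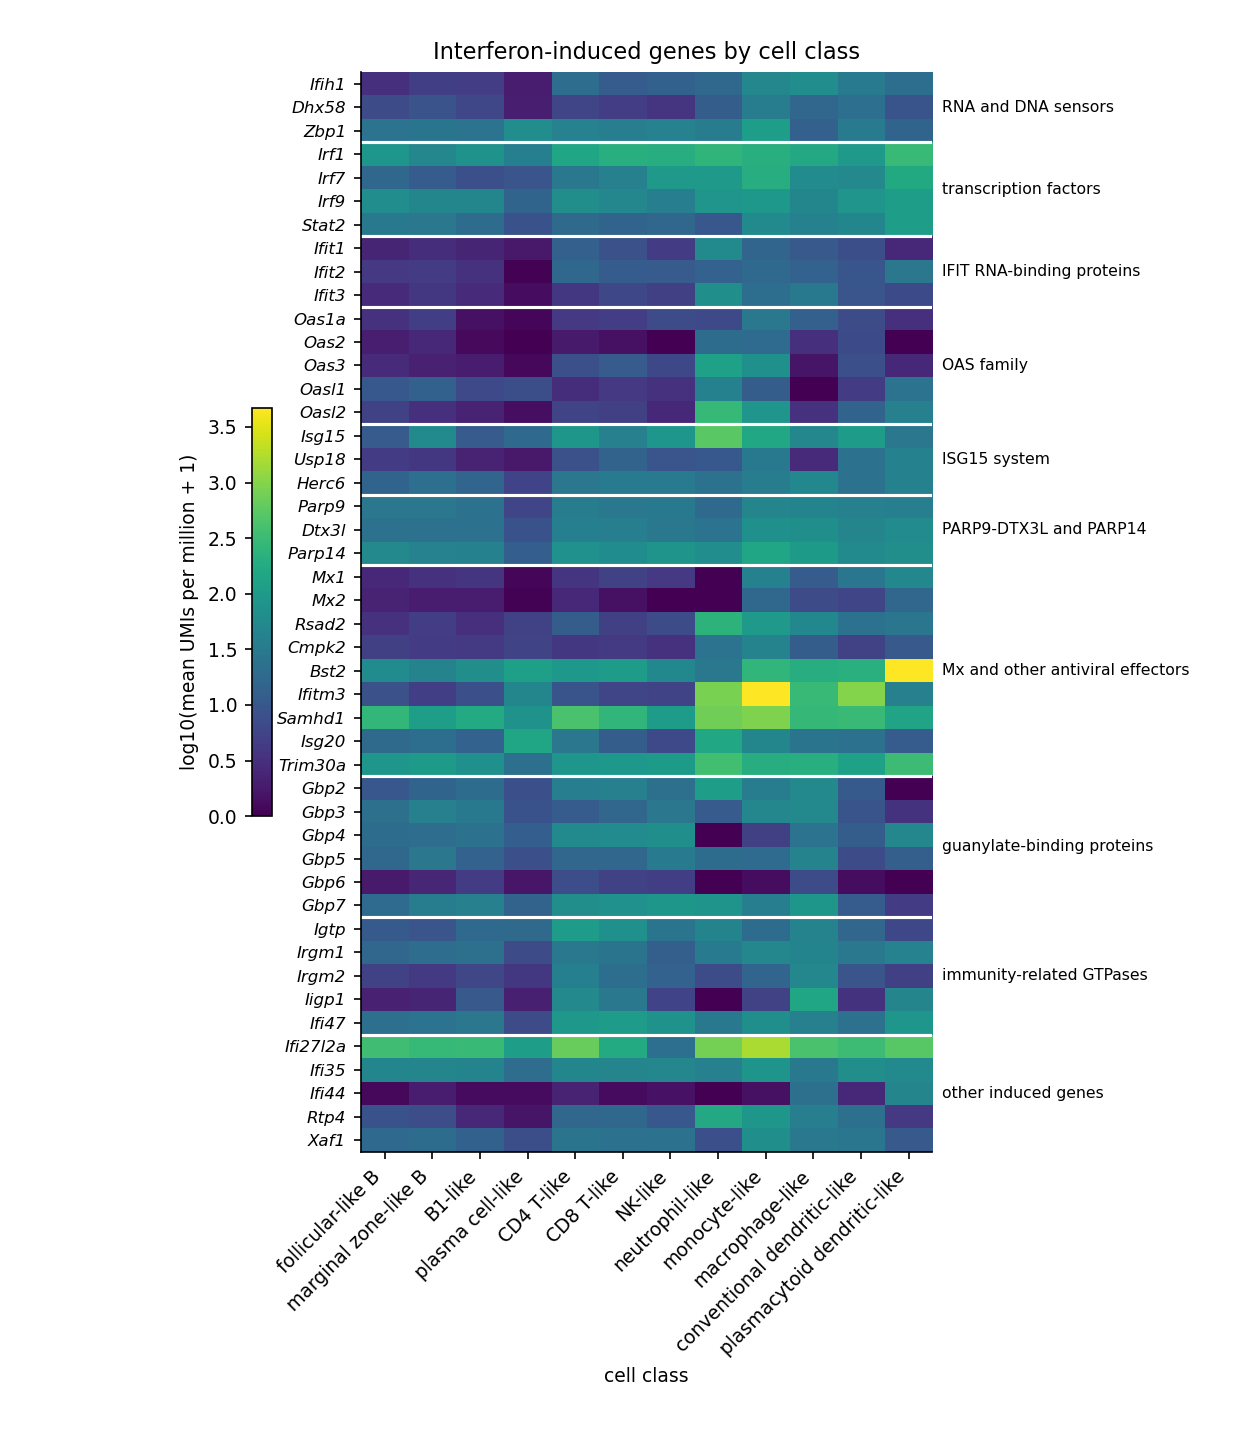
Mean level of each of the 46 genes (down the page) in each cell class (across) over all replicates with at least 10 cells, in colour on a log scale of CPM. Monocyte-like, neutrophil-like, plasmacytoid dendritic-like and macrophage-like cells hold the highest level of 15, 12, 8 and 7 genes, and Isg20 in plasma cell-like cells (146) stands out from the low values of that class.

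Single cells with an Ifit3 UMI held a further type I member more often than the rest in 10 of the 11 tested classes that had such cells. Several of these classes had few such cells: 1 plasmacytoid dendritic-like, 2 NK-like, 4 B1-like and 8 monocyte-like. Their direction rests on those cells alone. Among follicular-like B cells thinned to 1500 UMIs, 39 of 13471 had an Ifit3 UMI, and 33.3% of these had a UMI of at least 1 of 7 further type I members, against 2.92% of the rest. The shares were 57.1% of 14 CD4 T-like cells against 6.35% of the rest, and 22.5% of 40 CD8 T-like cells against 5.18%. Macrophage-like cells went the other way, with 0% of 7 such cells against 12.8% of the rest. These are counts of cells over all genotypes, and no test was made. The share of monocyte-like cells with 3 or more of 20 type I members was 27.4% ± 1.20 in R594C/R594C (SD, n = 2), 32.7% ± 4.24 in R594C/+ (n = 4) and 26.6% ± 7.54 in WT (n = 4), so the genotypes overlapped. In CD4 T-like cells it was 6.21 and 3.64% in R594C/R594C, 6.62, 9.49, 6.31 and 8.39% in R594C/+ and 6.74, 3.26, 6.53 and 6.43% in WT, again with overlap.

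**Figure D2:**
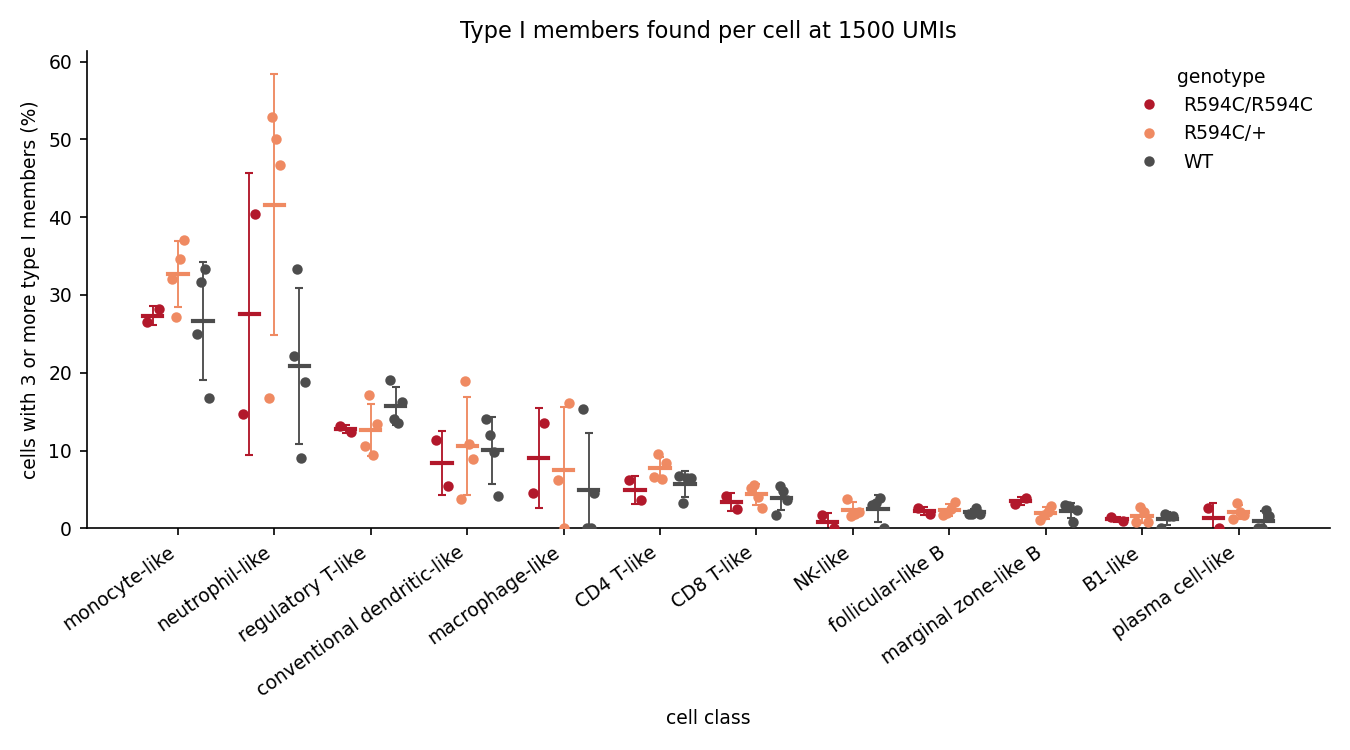
Percent of cells, thinned to 1500 UMIs, in which 3 or more of 20 type I members had a UMI, per replicate (points) in R594C/R594C, R594C/+ and WT, by class, with the mean and SD as bars. The highest replicates are neutrophil-like (up to 52.9%) and monocyte-like (up to 37.0%), other neutrophil-like replicates reach down to 9.09%, and the genotypes overlap in monocyte-like cells.

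The first genotype comparison asks what differed with 2 copies of R594C. In R594C/R594C against WT, 1 of the 311 tests of members over 11 classes passed an adjusted p of 0.05 (edgeR quasi-likelihood test on summed UMIs, Benjamini-Hochberg over all genes of the class), against 0.125% of all 76669 gene tests. The member that passed was Isg20, which fell in plasma cell-like cells. DESeq2 also called 1 member. At an unadjusted p under 0.05 were 26 member tests (8.36%), against 5.66% of all gene tests. Members were lower in R594C/R594C than in WT in 215 of 311 tests (69.1%), against 50.7% of all gene tests, and the median of the members lay below that of all genes in 9 of 11 classes. The same genes and the same 2 R594C/R594C replicates recur over the classes, so these tests are not independent and the shares carry no test. Mx2 and Ifi44 were too scarce to be tested in any class, and plasmacytoid dendritic-like cells were not compared with WT, where each replicate had under 10 of them.

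In R594C/+ against WT, none of the 311 member tests passed, against 0.170% of all gene tests. DESeq2 called 0 members, and 17 tests (5.47%) had an unadjusted p under 0.05, against 6.09% of all gene tests. Members were lower in R594C/+ than in WT in 139 tests (44.7%), against 50.4% of all. In R594C/R594C against R594C/+, over 12 classes, 1 of 320 member tests passed, against 0.152% of all gene tests, again Isg20 in plasma cell-like cells and lower in R594C/R594C. Here 39 tests (12.2%) had an unadjusted p under 0.05, against 6.82% of all, and 226 (70.6%) were lower in R594C/R594C, against 50.1% of all. Summed over the 46 genes, follicular-like B cells had 1320 and 1258 CPM in R594C/R594C, 1324 to 1520 in R594C/+ and 1317 to 1446 in WT, and CD4 T-like cells 2443 and 2033 in R594C/R594C, 2495 to 2957 in R594C/+ and 2307 to 2700 in WT. In both classes R594C/R594C lay below R594C/+ and overlapped WT. The comparisons share replicates, so their counts are not independent of each other, and within each comparison the same genes and replicates recur over the classes.

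**Figure D3:**
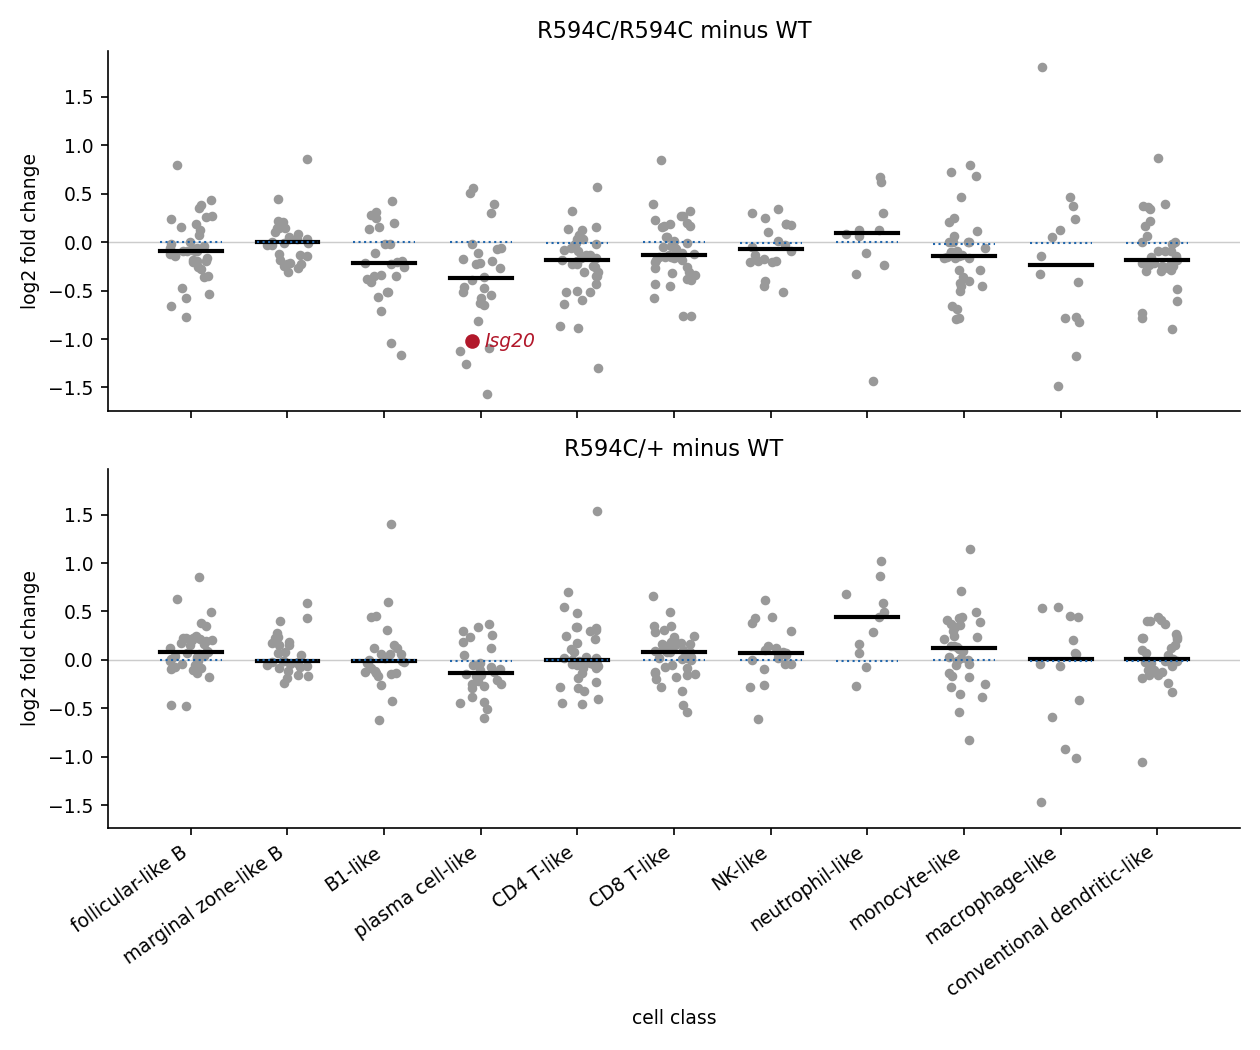
Log2 fold changes of the members (points) in each class for R594C/R594C minus WT (top) and R594C/+ minus WT (bottom). Black bars are the median of the members and blue dotted lines that of all genes tested in the class, with the first below the second in 9 of 11 classes (top) and 3 of 11 (bottom), and the called value, Isg20 in plasma cell-like cells, is in red.

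Isg20 fell in plasma cell-like cells with 2 copies of R594C. It had 101 and 82.0 CPM in R594C/R594C, 148, 142, 151 and 126 in R594C/+, and 161, 149, 177 and 218 in WT. Both R594C/R594C replicates were below every other replicate, while R594C/+ and WT overlapped. The fit gave a log2 change of -1.02 ± 0.15 (SE) for R594C/R594C against WT (0.493-fold, edgeR adjusted p = 0.00137), where 0.189% of the genes of the class were called. Against R594C/+ it gave -0.78 ± 0.15 (adjusted p = 0.0162), where 0.174% were called, and R594C/+ against WT gave -0.24 ± 0.11 (adjusted p = 0.874). The counts behind these levels were 130 and 132 UMIs in R594C/R594C, 236 to 324 in R594C/+ and 160 to 239 in WT, from 44 to 125 cells a replicate.

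The lower Isg20 level was also seen as a smaller share of cells. An Isg20 UMI was found in 59.5 and 49.0% of plasma cell-like cells in R594C/R594C, in 79.8, 74.4, 65.7 and 67.2% in R594C/+ and in 72.0, 72.6, 75.0 and 77.6% in WT. Thinned to 1500 UMIs, the shares were 14.7 and 6.06% in R594C/R594C, 18.8, 21.1, 12.8 and 20.0% in R594C/+, and 16.9, 23.1, 23.3 and 32.8% in WT, so both R594C/R594C replicates stayed below every WT replicate, and 1 of them overlapped R594C/+. The median depth of these cells was 15956 to 17681 UMIs in R594C/R594C, 16653 to 19532 in R594C/+ and 17455 to 20305 in WT. In NK-like cells the share was 0.699% thinned and 1.54% unthinned, at a median depth of 3270.0.

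The plasma cell-like class mixes IgM and switched cells, and the mix differed between replicates, with IgM the leading heavy chain in 89.9 and 36.5% of R594C/R594C cells, 53.3 to 72.7% of R594C/+ cells and 38.4 to 81.8% of WT cells. Within IgM cells, Isg20 had 105 and 91.6 CPM in R594C/R594C, 133, 144, 167 and 119 in R594C/+, and 158, 162, 168 and 173 in WT. Within switched cells it had 69.2 and 75.5 in R594C/R594C, 174, 140, 104 and 134 in R594C/+, and 176, 141, 216 and 300 in WT. In both kinds the R594C/R594C replicates were below all others, although 1 switched value rested on 9 UMIs. This split was chosen after the values were seen and carries no test.

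RNA of other cells also differed between the captures in plasma cell-like cells. The 8 erythroid markers summed to 48.2 and 55.3 CPM in R594C/R594C, 51.2 to 62.9 in R594C/+ and 8.87 to 18.2 in WT, and the 8 neutrophil markers to 18.7 and 18.6 in R594C/R594C, 46.6 to 100 in R594C/+ and 4.43 to 13.8 in WT. A UMI was found of 6 of the 8 neutrophil markers in R594C/R594C (Csf3r and Retnlg were at 0), of 7 in R594C/+ (Ly6g was at 0) and of 5 in WT (Cxcr2, Mmp9 and Ly6g were at 0). Isg20 RNA itself is high in neutrophil-like and erythroid-like cells. The 8 plasma cell markers summed to 51614 and 40102 in R594C/R594C, 31732 to 39380 in R594C/+ and 27804 to 42996 in WT. The part of these sums in the Isg20 result was not tested. Without R594C/R594C replicate 2 the adjusted p was 0.0608 against WT and 0.269 against R594C/+, and the second comparison was also lost without R594C/+ replicate 1 (0.055), 2 (0.0639) or 3 (0.0596). Over 18 alternatives the adjusted p ranged from 7.40e-09 to 0.0608 against WT and from 2.66e-05 to 0.269 against R594C/+, and the log2 change stayed negative in all of them.

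Isg20 was tested against WT in 8 classes, and outside plasma cell-like cells no difference passed. It was not tested in neutrophil-like, NK-like, macrophage-like or plasmacytoid dendritic-like cells. In neutrophil-like cells it had 148 and 157 CPM in R594C/R594C, 155, 105, 204 and 183 in R594C/+, and 143, 182, 203 and 60.6 in WT, with full overlap. For R594C/R594C against WT, its log2 change in follicular-like B cells was 0.19 ± 0.16 (adjusted p = 1.0), and in CD4 T-like cells -0.50 ± 0.23 (adjusted p = 0.999). Whether the plasma cell-like difference exceeds that in another class was not tested.

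**Figure D4:**
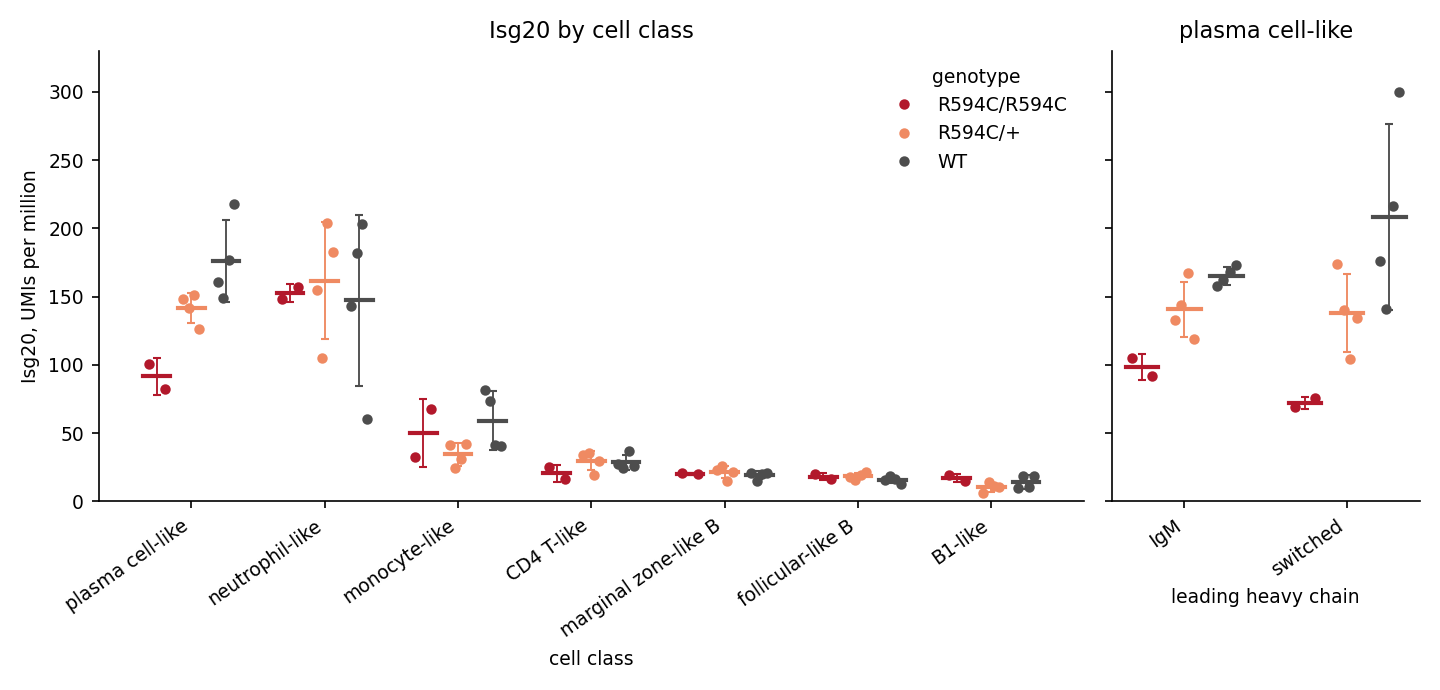
Isg20 level per replicate (points, CPM) in R594C/R594C, R594C/+ and WT, by class (left) and by leading heavy chain of the plasma cell-like cells (right), with the mean and SD as bars. In plasma cell-like cells R594C/R594C has 101 and 82.0, below every R594C/+ replicate (126 to 151) and WT replicate (149 to 218).

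Among the other effectors of plasma cell-like cells, Samhd1 was higher in R594C/R594C without passing. It had 104 and 116 CPM in R594C/R594C, 60.6, 58.0, 74.0 and 69.1 in R594C/+, and 62.6, 56.8, 83.1 and 83.2 in WT. Its R594C/R594C replicates were above all others, with a log2 change of 0.56 ± 0.15 against WT (adjusted p = 0.163) and 0.61 ± 0.15 against R594C/+ (adjusted p = 0.134). Samhd1 had the smallest adjusted p of the members in R594C/+ against WT in NK-like cells, at 0.36, with 58.9, 98.0, 90.6 and 83.8 in R594C/+ and 116, 141, 122 and 128 in WT. Cmpk2, a mitochondrial nucleotide kinase, rested on few UMIs in plasma cell-like cells, with 7.0 and 4.97 in R594C/R594C and 0.914 to 7.76 in WT.

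Guanylate-binding proteins, GTPases that coat and break open microbe-containing vacuoles, leaned lower with 2 copies without any call. They were lower in R594C/R594C than in WT in 39 of 44 tests (median log2 change -0.27), against 50.7% of all gene tests. In R594C/+ they were lower than in WT in 17 of 44 (median 0.09), against 50.4% of all. All 5 tested in follicular-like B cells (median -0.28), all 5 in plasma cell-like cells (median -0.63) and all 6 in CD4 T-like cells (median -0.39) were lower in R594C/R594C. Of all genes tested in these classes, 50.3, 50.4 and 51.1% were lower. The same few genes and replicates recur over the classes, so these counts are not independent and carry no test. Gbp7 had the most negative value in plasma cell-like cells of this family, with 8.56 and 6.21 CPM in R594C/R594C, 8.75, 17.1, 14 and 16.5 in R594C/+, and 12.7, 18.9, 14.4 and 20.1 in WT. Both R594C/R594C replicates were below every other replicate, and the log2 change against WT was -1.25 ± 0.35 (adjusted p = 0.163).

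The immunity-related GTPases showed the same lean, with 30 of 33 tests lower in R594C/R594C than in WT (median -0.19), 16 of 33 in R594C/+ against WT (median 0.01) and no call. Of all gene tests, 50.7 and 50.4% were lower in these comparisons, and the 33 tests are not independent of each other either. Irgm1, a regulator of the family, had 1.56 and 3.73 CPM in plasma cell-like cells of R594C/R594C, 3.12, 3.52, 5.74 and 8.77 in R594C/+, and 6.34, 7.28, 11.1 and 7.31 in WT. R594C/R594C was below WT and overlapped R594C/+, and the log2 change against WT was -1.57 ± 0.56 (adjusted p = 0.381). Iigp1 was lower in R594C/R594C in all 4 classes tested, between -1.17 and -0.27.

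Sensors, IFIT genes and OAS genes gave few tests, because of low counts. Sensors were lower in R594C/R594C than in WT in 12 of 21 tests, IFIT genes in 5 of 9 and OAS genes in 10 of 17, none of them called. Of all gene tests, 50.7% were lower. In follicular-like B cells the lowest members by fold change were Oas1a (-0.77) and Ifih1 (-0.65), and the highest Ifit3 (0.79) and Oasl2 (0.43), each with an adjusted p of 1.0. Ifit3 there had 3.13 and 1.59 CPM in R594C/R594C, 2.27, 1.47, 3.46 and 1.16 in R594C/+, and 1.15, 1.38, 1.19 and 1.78 in WT. Oasl2 had 4.84 and 4.91 in R594C/R594C, 2.72, 4.05, 5.19 and 7.25 in R594C/+, and 1.92, 4.40, 4.17 and 3.55 in WT. For Oasl2 both R594C/R594C values were above every WT value by a small margin and overlapped R594C/+. Oas1a had 0.997 and 1.74 in R594C/R594C and 1.79 to 3.55 in WT, and Ifih1 had 1.85 and 1.59 in R594C/R594C and 1.78 to 3.85 in WT. Oas1a did not overlap WT and Ifih1 did.

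In CD4 T-like cells Ifit1 had 7.92 and 5.27 CPM in R594C/R594C, 18.9, 6.40, 15.3 and 7.81 in R594C/+, and 12.9, 4.97, 30 and 15.2 in WT, with overlap of all genotypes. Its log2 change against WT was -1.30, and that of Dhx58 -0.88, while Ifitm3 (0.57) and Ifit2 (0.32) had the highest values there. All of these had an adjusted p of 0.999. Dhx58 had 2.47 and 3.16 in R594C/R594C and 3.46 to 8.30 in WT, which did not overlap. Ifit2 had 19.3 and 17.6 in R594C/R594C and 8.08 to 22.5 in WT, which did. Ifitm3 had 5.94 and 6.58 in R594C/R594C, 3.19 to 5.63 in WT and up to 28.6 in R594C/+ replicate 4, but its share of CD4 T-like cells after thinning (0.899%) was one not read as expression.

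Transcription factor genes were lower in R594C/R594C than in WT in 21 of 36 tests (58.3%), against 50.7% of all gene tests. Irf1 came nearest to the threshold in follicular-like B cells, with 63.7 and 65.5 CPM in R594C/R594C, 74.4, 80.2, 82.7 and 105 in R594C/+, and 88.1, 89.1, 81.8 and 102 in WT. Both R594C/R594C replicates were below every other replicate, and R594C/+ and WT overlapped. The log2 change was -0.47 ± 0.11 against WT (adjusted p = 0.0594, where 0.217% of the genes of the class were called) and -0.44 ± 0.11 against R594C/+ (adjusted p = 0.0652, where 0.501% were called). Irf1 did not pass, but it was called against WT in 8 of 18 alternatives, among them the fits without R594C/+ replicate 1 or 4 or WT replicate 3, and against R594C/+ in 3 of 18, among them the fit without R594C/+ replicate 1 (adjusted p from 6.75e-04 to 0.470 and from 0.00355 to 0.434). In CD8 T-like cells it had 200 and 215 in R594C/R594C, 182 to 207 in R594C/+ and 202 to 239 in WT, with overlap.

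Whether a genotype difference of a member differed between follicular-like B cells and T cells was tested as an interaction. None of 172 member tests passed, against 0.00676% of all 44392 gene tests, and 14 had an unadjusted p under 0.05 (edgeR; no other tool was run). The smallest p was that of Irf1 for R594C/R594C against WT, where the log2 change in follicular-like B cells was lower than that in CD4 T-like cells by a difference of -0.60 ± 0.14 (edgeR adjusted p = 0.68). Against CD8 T-like cells the difference was -0.40 ± 0.12 (adjusted p = 0.352). For R594C/+ against WT, Ifit1 passed without R594C/+ replicate 3 in the test against CD4 T-like cells (2.76 ± 0.70, adjusted p = 0.0365, against 2.37 ± 0.66 and 0.548 with it), but that fit called 96 genes higher and 27 lower of 11018, where the fit with all replicates called 0.

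The pathway around these genes was read from 60 further genes in 4 lists: receptors and kinases, regulators and brakes, interferons, and other induced genes. Of their 444 tests in R594C/R594C against WT none was called higher and 1 lower, against 0.125% of all gene tests. In R594C/+ against WT 1 was lower, against 0.170%, and in R594C/R594C against R594C/+ 2 of 462 were lower, against 0.152%. All 8 receptor and kinase genes were tested and none was called. Of 7 interferon genes, Ifng alone had enough counts to be tested, in 4 classes, with no call.

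The brake that was called was Socs3, which inhibits cytokine receptor kinases. In follicular-like B cells it had 31.1 and 28.4 CPM in R594C/R594C, 41.3, 42.7, 48.7 and 38.9 in R594C/+, and 39.2, 46.8, 52.4 and 51.2 in WT, and both R594C/R594C replicates were below all others. Its log2 change was -0.67 ± 0.12 against WT (adjusted p = 0.00194, where 0.217% of the genes of the class were called) and -0.55 ± 0.12 against R594C/+ (adjusted p = 0.0219, where 0.501% were called). The call against WT was lost without R594C/R594C replicate 2 (0.0744), and that against R594C/+ without either R594C/R594C replicate (0.11 and 0.174), without R594C/+ replicate 2 (0.0584) or 3 (0.127), with the replicate block (0.136) or with DESeq2 (0.0566). Over 18 alternatives the adjusted p ranged from 1.86e-05 to 0.0744 against WT and from 0.00355 to 0.174 against R594C/+. Slfn2, a Schlafen gene, fell in the same class against R594C/+ (-0.62 ± 0.12, adjusted p = 0.0261), with 61.7 and 71.7 in R594C/R594C, 108, 108, 109 and 82.6 in R594C/+, and 97.3, 75.9, 70.2 and 93.8 in WT. It overlapped WT, and the call was lost without R594C/R594C replicate 1 (0.359) or R594C/+ replicate 1, 2 or 3 (0.0986 to 0.106), with the replicate block (0.136) and with expressed sex in the fit (0.0913), within a range of 5.47e-08 to 0.359 over 18 alternatives.

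In marginal zone-like B cells Ms4a4c, a membrane protein of the MS4A family, fell in R594C/+ against WT, where 0.325% of genes were called. It had 79.3, 98.8, 76.2 and 81.2 CPM in R594C/+ and 97.8, 150, 126 and 135 in WT, with 1 R594C/+ value above the lowest WT value. The log2 change was -0.55 ± 0.12 (adjusted p = 0.0143). The call was lost without R594C/+ replicate 1, 3 or 4, or without WT replicate 2, 3 or 4 (0.0613 to 0.0947), and with DESeq2 (0.0637), and the smallest value over 18 alternatives was 3.52e-04.

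The erythroid and neutrophil markers differed between the captures in these B cells too. In follicular-like B cells the erythroid markers summed to 282 CPM in the lower of the R594C/R594C replicates, 255 to 284 in R594C/+ and 94.3 to 109 in WT, with a UMI of all 8 in each genotype. The neutrophil markers there summed to 80.5 and 81.6 in R594C/R594C and 144 to 161 in R594C/+, with all 8 detected, and to 33.3 to 45.1 in WT, where Ly6g was at 0. In marginal zone-like B cells the neutrophil markers summed to 92.9 to 117 in R594C/+ (8 of 8) and 12.8 to 22.7 in WT (7 of 8, Ly6g at 0), and the erythroid markers to 151 to 162 in R594C/+ (8 of 8) and 41.6 to 65.2 in WT (7 of 8, Alas2 at 0). The part of these sums in the Irf1, Socs3, Slfn2 and Ms4a4c results was not tested.

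Bst2 can be followed in RNA and, through the CD317 antibody tag, at the cell surface. Bst2 RNA was lower in R594C/R594C than in WT in all 10 classes where it was tested, by log2 changes from -0.77 to -0.17, and none passed. In conventional dendritic-like cells it had 108 and 167 CPM in R594C/R594C, 244, 221, 263 and 272 in R594C/+, and 260, 189, 200 and 179 in WT. Both R594C/R594C replicates were below every other replicate, with a log2 change of -0.61 ± 0.17 against WT (adjusted p = 0.596) and -0.84 ± 0.17 against R594C/+ (adjusted p = 0.107). It was called against WT in 1 of 18 alternatives (the margin rule for hashtags) and against R594C/+ in 4 of 18, and the log2 change against WT ran from -1.05 to -0.32, the weakest without R594C/R594C replicate 1. In CD8 T-like cells it had 99.1 and 78.2 in R594C/R594C, 87.6, 119, 100 and 101 in R594C/+, and 114, 110, 115 and 112 in WT, below WT but overlapping R594C/+ (-0.38 ± 0.11 against WT, adjusted p = 0.32). In plasmacytoid dendritic-like cells, where it is most abundant, R594C/R594C against R594C/+ gave -0.02 ± 0.11 (adjusted p = 0.993).

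The CD317 tag was called lower in R594C/R594C than in WT in 5 classes: follicular-like B, B1-like, CD4 T-like, CD8 T-like and NK-like cells. A large part of the panel moved, with 52.3% of 1546 antibody tests called in R594C/R594C against WT, 32.3% in R594C/+ against WT and 28.5% of 1602 in R594C/R594C against R594C/+, so a call of 1 tag stands on a high background. In CD8 T-like cells CD317 had 88.8 and 99.6 CPM of all antibody UMIs in R594C/R594C, 316, 265, 258 and 336 in R594C/+, and 434, 581, 573 and 462 in WT. The 3 genotypes did not overlap. The log2 change after TMM scaling was -1.21 ± 0.23 against WT (edgeR adjusted p = 0.000584) and -0.99 ± 0.23 against R594C/+ (adjusted p = 0.005).

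The order was alike in CD4 T-like cells, where CD317 had 83.4 and 106 antibody CPM in R594C/R594C, 210, 150, 233 and 236 in R594C/+, and 485, 499, 417 and 494 in WT (-1.07 ± 0.24 against WT, adjusted p = 0.00141). In follicular-like B cells it had 131 and 120 in R594C/R594C, 210, 242, 273 and 286 in R594C/+, and 456, 493, 515 and 466 in WT, again without overlap, while the log2 change after TMM scaling was -0.47 ± 0.19 (adjusted p = 0.038). Marginal zone-like B cells had 194 and 177 CD317 CPM in R594C/R594C, 295 to 369 in R594C/+ and 460 to 507 in WT, and the scaled change did not pass (-0.36 ± 0.17, adjusted p = 0.0916). NK-like cells gave -1.66 ± 0.54 (adjusted p = 0.0171) and B1-like cells -0.76 ± 0.26 (adjusted p = 0.0209) against WT. R594C/+ against WT was called in follicular-like B (-0.39, adjusted p = 0.0422) and CD4 T-like cells (-0.49, adjusted p = 0.0449).

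The CD317 tag was scarce in these classes. Whether counts this low come from CD317 on the cells or from unbound antibody was not tested, and they are not read as surface CD317. Follicular-like B cells had 0.0534 CD317 UMIs a cell in R594C/R594C, 0.112 in R594C/+ and 0.218 in WT, against 40.4 and 43.4 in plasmacytoid dendritic-like cells of R594C/R594C and 38.0 to 47.1 in those of R594C/+. In plasmacytoid dendritic-like cells the difference of the tag between these genotypes did not pass (-0.16 ± 0.15, adjusted p = 0.745). Per cell, the whole panel was lower in follicular-like B cells of R594C/R594C than of WT, with 152 of 170 antibodies lower and a median log2 ratio of -1.63, beside -2.01 for CD317. In CD8 T-like cells the median was -1.40 and CD317 -2.38, and in CD4 T-like cells -1.51 and -2.32. The part of the staining in the tag result was not tested.

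For R594C/R594C against WT, the median log2 change of all antibodies in follicular-like B cells was -0.13 with TMM and 0.23 with DESeq2's size factors. With the size factors the CD317 tag was called in 3 classes, lower in CD4 T-like (-0.61) and CD8 T-like cells (-0.79) and higher in plasma cell-like cells (1.07, against 0.72 ± 0.34 and an adjusted p of 0.0916 in edgeR). The follicular-like B call was lost without R594C/R594C replicate 1 or WT replicate 2 or 3, the B1-like call without R594C/R594C replicate 1 and the NK-like call without R594C/R594C replicate 2. In plasma cell-like cells CD317 was at 0.980 UMIs a cell in R594C/R594C, 0.871 in R594C/+ and 0.847 in WT.

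The Ly6A_Ly6E tag, which reads the interferon-induced surface proteins Sca-1 and its relative, was called higher in R594C/R594C than in WT in 6 classes after TMM scaling, among them follicular-like B (1.60 ± 0.20, adjusted p = 9.34e-06) and plasma cell-like cells (1.17 ± 0.22, adjusted p = 0.000833). It was also called higher in R594C/+ than in WT in 7 classes, with 0.80 ± 0.17 in follicular-like B cells (adjusted p = 0.00163) and 1.02 in CD4 T-like cells (adjusted p = 0.00209), where R594C/R594C against WT gave 0.98. On the scale of UMIs a cell, follicular-like B cells had 6.02 and 6.26 in R594C/R594C, 7.12, 8.67, 6.43 and 6.77 in R594C/+, and 6.10, 6.46, 5.58 and 6.37 in WT, where the genotypes overlapped, so the size of this call depends on the scaling. Plasma cell-like cells had 45.6 and 36.7 in R594C/R594C, 41.7, 39.8, 28.3 and 31.4 in R594C/+, and 25.7, 31.0, 17.9 and 27.4 in WT, with R594C/R594C above WT on this scale too. Ly6a RNA was not called, with log2 changes of -0.45 in follicular-like B cells (adjusted p = 0.961) and -0.23 in plasma cell-like cells (adjusted p = 0.873).

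**Figure D5:**
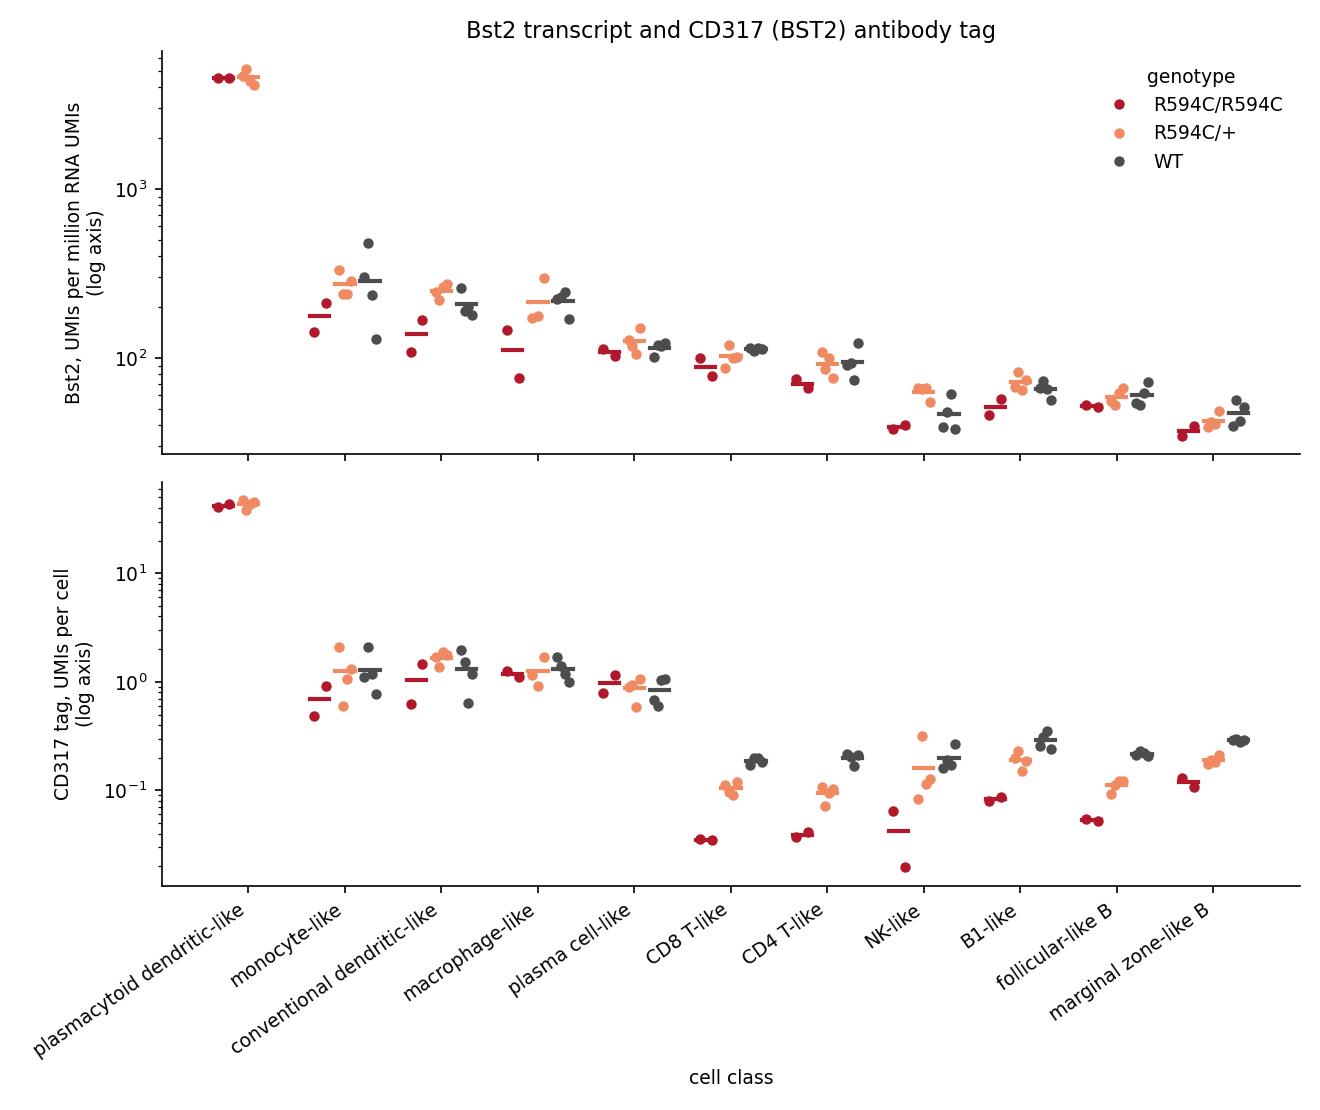
Bst2 RNA (RNA CPM) and CD317 antibody tag (UMIs a cell), per replicate (points) in R594C/R594C, R594C/+ and WT, by class on log axes, with means as bars. Plasmacytoid dendritic-like cells are highest in both, and the CD317 tag of T and follicular-like B cells is lowest in R594C/R594C, next R594C/+, and highest in WT.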

How the data were processed

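Per the labels, spleen cells were stained with tagged antibodies and hashtags and sequenced in 1 capture per genotype. The deposited matrices hold UMI counts per barcode for genes and antibody tags, made by the authors with Cell Ranger 5.0.0, per the file headers. The submitters' processing notes also name STAR, Seurat 3.1.4 and mm10. The 46 genes and all gene lists were chosen with earlier results of these data known.

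From these counts, a barcode had to hold 200 or more genes and no more than 10% of its UMIs from mitochondrial genes. No UMI threshold was added, and the fewest RNA UMIs of a barcode were 500 in each capture. HTODemux (Seurat 5.3.0) assigned 15502 (R594C/R594C), 15344 (R594C/+) and 12759 (WT) singles to 10 hashtag replicates. Cells like simulated doublets were removed (9.99, 4.16 and 3.39% of singles), leaving 40987 cells, which were clustered (30 principal components of 2000 variable genes, Leiden resolution 1.5, leidenalg 0.10.2) without the members. Of 36 clusters, 27 were named from markers. The 9 unnamed clusters were left out, the largest (1663 cells) with 4.08% of R594C/R594C cells, 3.71% of R594C/+ cells and 4.44% of WT cells. Not all were this even: a cluster of 114 cells with all 8 neutrophil markers held 0.0932% of R594C/R594C, 0.639% of R594C/+ and 0.0568% of WT cells.

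UMI counts were summed per replicate and class (at least 10 cells) and fitted over all 3 genotypes with edgeR 4.0.16 (quasi-likelihood, robust, TMM, filterByExpr), 1 fit a class, with Benjamini-Hochberg adjustment over all genes and a threshold of 0.05. R594C/+ replicate 1 had too few macrophage-like cells and was left out of that fit. Antibody counts were fitted likewise where they averaged at least 10 UMIs a replicate. The test code was checked on simulated counts. For shares of cells, each cell was thinned to 1500 UMIs, and shallower cells were left out (509 of R594C/R594C, 428 of R594C/+ and 351 of WT). Counting error and amplification are not covered by the SEs beyond the spread between replicates.

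Levels by class are means over replicates, and their lowest and highest replicates are given for Ifitm3 and for Ifit1 in neutrophil-like cells. For the genotypes, values or ranges over replicates are given for members past the threshold. In follicular-like B and CD4 T-like cells, which had none, they are given for the 2 highest and 2 lowest log2 fold changes of R594C/R594C minus WT. The same 4 extremes of plasma cell-like cells (Samhd1, Cmpk2, Gbp7, Irgm1), Irf1, Bst2, Samhd1 in NK-like cells and the other Isg20 values were added after their values were seen. Alternatives were DESeq2 1.42.0, no low-count filter, each replicate left out, a replicate block, expressed sex, another hashtag rule, doublets kept, members kept in clustering, only the genotypes compared and, chosen after seeing the data, naive T clusters alone.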

Additional observations from a re-analysis of the deposited data

Results flagged for a closer look

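Of 60 groups of 4 replicates examined, 2 held a replicate far from the other 3, where chance alone gives about 1 in 20. Slfn2 in follicular-like B cells had 82.6 CPM in R594C/+ replicate 4, against 108, 108 and 109 in the other R594C/+ replicates. The CD317 tag in CD4 T-like cells had 417 CPM of the antibody UMIs in WT replicate 3, against 485, 494 and 499 in the other WT replicates. Both groups enter comparisons given above, and neither distance was tested further.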

How the results depend on the processing

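No value that passed its threshold changed direction under any alternative run. Medians of the members, which carry no test, did: for R594C/R594C against WT in follicular-like B cells, -0.09 became 0.02 without R594C/R594C replicate 2, and in plasma cell-like cells for R594C/R594C against R594C/+, -0.29 became 0.06 with the replicate block. For members called in R594C/R594C against WT (1), the count was 2 with no low-count filter, with expressed sex in the fit, with members kept in clustering and with only these genotypes fitted, each time Irf1 in follicular-like B cells beside Isg20, and 4 with the margin rule for hashtags, which added Bst2 in conventional dendritic-like and Gbp7 in plasma cell-like cells. Leaving out 1 replicate gave 0 to 2. For R594C/+ against WT (0), it was 1 with no filter (Ifitm3 in CD4 T-like cells), 1 with expressed sex (Ifi27l2a in marginal zone-like B cells) and 0 to 0 without 1 replicate. For R594C/R594C against R594C/+ (1), it was 5 with no filter, 4 with the replicate block, 2 with expressed sex, 2 with members kept in clustering, 3 with only these genotypes and 0 to 2 without 1 replicate. Naive T clusters alone added no call. The CD317 tag was called in 5 classes, in 3 with DESeq2 and in 3 to 6 without 1 replicate, and the Ly6A_Ly6E tag in 6 and in 5 to 6. The interaction count (0) was 1 with no filter (Irf1) and 0 to 1 without 1 replicate. Monocyte-like cells with 3 or more type I members were 21.3% of R594C/R594C, 25.3% of R594C/+ and 17.9% of WT cells at 1000 UMIs, and 33.1% of R594C/R594C, 43.0% of R594C/+ and 36.5% of WT cells at 2000 UMIs, so the order of R594C/R594C and WT differed between these depths. The cause of these shifts was not tested. Whether the replicate numbers pair the samples is not known. In follicular-like B cells, deviations of same-numbered replicates correlated between -0.0635 and 0.349, which cannot settle it. The highest value was that of replicate 2 of R594C/R594C and of WT, both female by Xist. Under the replicate block the counts against WT stayed at 1 and 0. Of the values for single genes, medians of members and T-cell call counts, 454 were kept, 59 moved, 17 gained and 25 lost a call. A gene was kept if its direction and its side of the threshold held. A median or count was kept if it stayed within a set ratio of the main value. With 2 R594C/R594C replicates and 1 capture a genotype, low-count members such as the IFIT and OAS genes could be tested in few classes.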
